A study of Mus musculus with 12 samples.

Results

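The mitochondrial import and proteostasis genes were followed here as a set of 41 genes among the 27179 Entrez gene IDs of the count table. They were chosen by symbol, with no measured value in the rule, but with earlier results of these data known. The set holds the 15 Timm genes and 10 Tomm genes that encode protein, the antisense RNA Tomm6os, and 15 named genes for mitochondrial chaperones, proteases, prohibitins and a cofactor of the import motor. RNA was sequenced from MC38-idAdpgkG, engineered from MC38, a colon carcinoma line of C57BL/6 mice. Its transgene is Adpgk with the R304M change, joined to turboGFP. Doxycycline switches it on, and the degrader dTAG-13 sends its protein to the proteasome. All cultures received 20 ng/mL mouse interferon-gamma for 51 h, so no group shows cells without it. The control group received nothing else. The doxycycline group also had 1 µg/mL doxycycline for the same 51 h. The dTAG-13 group had 1 µM dTAG-13 for the last 3 h, with the transgene not induced. The combined group had both agents, with dTAG-13 added after 48 h. Each of the 4 groups was 1 culture sequenced as 3 technical libraries, so every p-value measures only the spread between libraries of a culture. Whether the line is 1 clone was not stated in the labels. In every doxycycline group the antibiotic and the transgene came together and cannot be told apart.

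Nearly all mitochondrial proteins are made in the cytosol and imported. The TOM complex is the entry pore of the outer membrane, the small TIM proteins carry hydrophobic precursors across the intermembrane space, and TIM22 and TIM23 insert precursors into the inner membrane or pass them into the matrix, where a motor built on Hspa9 pulls them in. Inside, the chaperonin of Hspd1 and Hspe1 folds proteins, and the proteases of the matrix and inner membrane remove those that fail. Hspd1, Hspe1, Hspa9, Lonp1 and Clpp are commonly read as transcripts of the mitochondrial unfolded protein response. Doxycycline belongs to the tetracyclines, antibiotics of a class that also binds mitochondrial ribosomes.

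The 12 libraries held 22165538 to 32809573 counted reads, and 12910 genes passed the filter on low counts. Of the 41 members, 39 were tested. Tomm20l and Timm8a2 had 4 reads each over all 12 libraries and were not tested. The labelled carcinoma had no read of the epithelial markers Epcam and Cdx2 in any library, and Krt8 stayed at or below 0.107 CPM (edgeR's counts-per-million value, on library sizes adjusted by TMM, the trimmed mean of M values). Vim, a mesenchymal gene of many carcinoma lines, stood between 1006 and 1523 CPM. Of 5 fibroblast markers, Pdgfra (145.8 to 195.0 CPM) and Dcn (140.5 to 205.1) were high, Pdgfrb lay between 4.41 and 8.49, and the collagen genes Col1a1 and Col1a2 stayed at or below 0.193 and 0.351 CPM. The immune marker Ptprc stayed at or below 0.0393 CPM. In bulk RNA, fewer cells of a type and less RNA per cell cannot be told apart.

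Levels of different genes were compared as CPM per kilobase of the longest coding transcript, in the control libraries. Hspa9 was highest at 697, followed by Hspd1 at 408, Phb2 at 324 and Hspe1 at 193 CPM per kilobase. The library ranges of these 4 did not overlap. Tomm22 (149) and Tomm5 (148) overlapped each other, as did Tomm5 and Lonp1 (136), and Timm13 (124) and Tomm40 (122). Of the 39 neighbouring pairs in the full order of 40 genes with a length, 15 overlapped. At the lower end of the tested members were Timm17b at 5.76 and Timm10b at 5.34 CPM per kilobase, with no overlap between them.

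Called decreases with doxycycline without the degrader came from every role of the coding members except the cytosolic cochaperone (Tomm34) and the intermembrane protease (Htra2). Of 39 tested members, 22 fell and 0 rose against control, at an adjusted p under 0.05 in edgeR's quasi-likelihood test over all 12910 genes. Over all genes tested, 18.7% were called lower and 14.8% higher. The changes were small: the median log2 fold change of the members was -0.11, against -0.0104 over all genes, and the member values ran from -0.33 to 0.11. In 25 members all 3 doxycycline libraries lay below all 3 control libraries, and in 1 they lay above. Groups failed to overlap in 43.9% of all tested genes. The count of members called lower ranged from 16 to 23 when each of the 12 libraries was left out in turn. With the libraries scaled by total count alone, the calls of Tomm70a (-0.019), Hspa9 (-0.032), Grpel1 (-0.057) and Clpp (-0.092) ended. Of all 12910 genes, that scaling called 2546 higher and 1607 lower, in place of 1917 and 2414.

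With dTAG-13 for 3 h, 15 of the 23 tested import genes rose and 2 fell. Of the 15 named chaperone, protease, prohibitin and motor genes 7 rose and 5 fell, and the difference between these lists was not tested. Over the whole set without doxycycline, 22 members rose and 7 fell, against a background of 30.0% of all genes called higher and 32.1% called lower. The 7 that fell were Hspd1, Tomm40, Tomm34, Afg3l2, Spg7, Hspa9 and Lonp1. With doxycycline present throughout, 27 members rose and 6 fell on adding dTAG-13, against 30.7% of all genes called higher and 33.4% called lower. The 6 were the same genes without Tomm40. These comparisons share no library. The member median was 0.095 without doxycycline and 0.30 with it, where all genes had medians of 0.0187 and 0.00321. Groups did not overlap in 29 members without doxycycline (22 higher, 7 lower) and in 36 with it (28 higher, 8 lower), against 65.5% and 67.2% of all tested genes. With an offset for transcript length and GC content, described further on, the split without doxycycline was 11 higher and 12 lower over the whole set. It was 7 and 6 among the import genes, and 4 and 6 among the 15 named genes. Over all genes the offset gave 23.4% higher and 30.5% lower.

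Among cells that all had dTAG-13, doxycycline raised 8 members (Tomm20, Tomm22, Tomm5, Timm17a, Timm17b, Grpel1, Timm44 and Hspe1) and lowered 2 (Lonp1 and Afg3l2), beside 10.7% and 9.64% of all genes. The member median was 0.056, and that of all genes -0.00077. Of these, Timm17a was not called without any combined replicate or dTAG-13 replicate 2 or 3 (0.060 to 0.087), and Afg3l2 not without combined replicate 2 or 3 or any dTAG-13 replicate (-0.082 to -0.076). With the offset for length and GC content the split was 7 higher and 1 lower, beside 9.47% and 8.39% of all genes. The calls of Tomm5 (0.011, adjusted p = 0.866), Timm44 (0.072, adjusted p = 0.123) and Afg3l2 (-0.067) ended there, Tomm40l was called at 0.13, and Hspe1 was at 0.077. With the libraries scaled by total count alone the split was 6 higher and 4 lower, where all genes gave 7.17% higher and 16.5% lower.

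**Figure D1:**
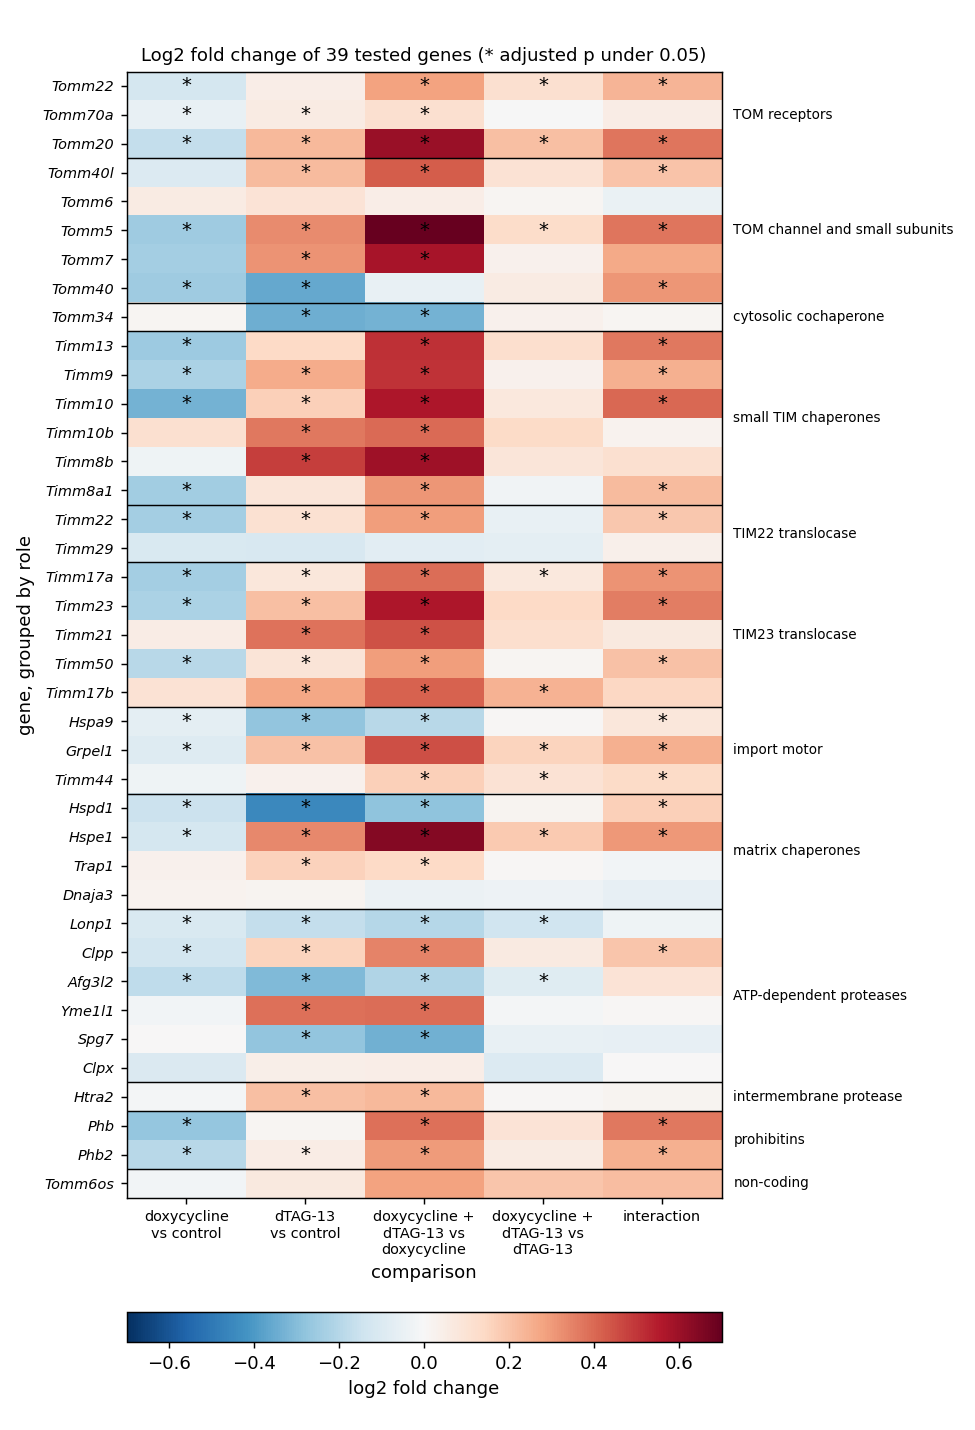
Log2 fold change (colour) of the 39 tested genes (rows, grouped by role) in the 4 comparisons between groups and the interaction (columns), with an asterisk where the adjusted p was under 0.05. The doxycycline column holds 22 decreases and no called increase, beside 18.7% and 14.8% of all genes. The column for dTAG-13 in doxycycline-treated cells holds 27 increases and 6 decreases, beside 30.7% and 33.4% of all genes.

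The TOM receptors bind precursors at the mitochondrial surface: Tomm20 and Tomm22 recognise presequences, and Tomm70a receives precursors from cytosolic chaperones. All 3 tested receptors fell with doxycycline and all 3 rose when dTAG-13 was added to doxycycline-treated cells. Over all genes 18.7% were called lower and 30.7% higher in these comparisons, which share the 3 doxycycline libraries. Tomm20 was at 244, 233 and 235 CPM in the control libraries and at 202, 213 and 219 in the doxycycline libraries. With dTAG-13, Tomm20 was at 286, 262 and 285 in the dTAG-13 libraries and at 332, 318 and 314 in the combined libraries. The 4 groups of Tomm20 did not overlap: doxycycline was lowest and the combined group highest. Tomm20 differed by -0.17 (SE 0.034, adjusted p = 6.71e-04) between doxycycline and control and by 0.23 (SE 0.034, adjusted p = 5.03e-06) between dTAG-13 and control on the log2 scale. Adding dTAG-13 to doxycycline-treated cells raised it by 0.60 (SE 0.034, adjusted p = 9.80e-13), a gain of 52.0%. Tomm22 followed with -0.12 for doxycycline, and 0.28 for dTAG-13 on top of doxycycline. Its difference between dTAG-13 and control was 0.048 (adjusted p = 0.0826). With the length and GC offset Tomm22 was called lower with dTAG-13 (-0.21) and not called on top of doxycycline (-0.0080). The outer-membrane receptor Tomm70a showed small changes, -0.055 (adjusted p = 0.0393) with doxycycline and 0.059 (adjusted p = 0.0125) with dTAG-13. The doxycycline call ended without control replicate 2 or 3, dTAG-13 replicate 1 or 2, or any doxycycline replicate (-0.058 to -0.035), and the dTAG-13 call without control replicate 1 or dTAG-13 replicate 2 or 3 (0.041 to 0.053).

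The channel protein Tomm40 went its own way within the TOM complex. Tomm40 was at 209, 199 and 197 CPM in the control libraries and at 169, 168 and 171 in the doxycycline libraries. With dTAG-13, Tomm40 was at 159, 155 and 157 in the dTAG-13 libraries and at 166, 164 and 159.9 in the combined libraries. Every control library lay above every treated library. Tomm40 fell by 15.95% with doxycycline; on the log2 scale this was -0.25 (SE 0.026, adjusted p = 5.00e-10). It fell by 22.0% with dTAG-13; on the log2 scale this was -0.36 (SE 0.026, adjusted p = 3.57e-15). In cells that already had doxycycline, adding dTAG-13 gave -0.051 (adjusted p = 0.0943). Tomm5, a small subunit that stabilises the complex, moved the other way under dTAG-13. Tomm5 was at 115, 103 and 109 CPM in the control libraries and at 89.0, 96.0 and 90.9 in the doxycycline libraries. With dTAG-13, Tomm5 was at 142, 134 and 136 in the dTAG-13 libraries and at 150.1, 148 and 151 in the combined libraries. The groups of Tomm5 did not overlap, and their order was doxycycline, control, dTAG-13 and combined. The difference of Tomm5 was -0.25 (SE 0.035, adjusted p = 4.57e-07) with doxycycline and 0.33 (SE 0.034, adjusted p = 6.94e-11) with dTAG-13. On top of doxycycline, dTAG-13 raised Tomm5 by 0.70 (SE 0.034, adjusted p = 7.81e-20), or 62.8%, the largest log2 fold change of the tested members in these comparisons. With the length and GC offset it was 0.21, below Tomm20 at 0.74 and Tomm40l at 0.66, and dTAG-13 against control gave -0.038 for Tomm5, not called. Tomm7, another small subunit, rose with dTAG-13 by 0.31 without and 0.58 with doxycycline. The Tomm40 paralog Tomm40l, whose gene overlaps Nr1i3 and Apoa2, rose by 0.22 and 0.42. Tomm6 was not called in any comparison of the main fit, with values from -0.046 in the interaction to 0.10 with dTAG-13. In 7 alternatives it was called higher with dTAG-13 against control. With the length and GC offset it was called lower there (-0.17), on top of doxycycline (-0.36) and in the interaction (-0.18). Its gene overlaps Tomm6os, Usp49 and Frs3, and the strand setting of the counting is not given in the sources used here. Tomm6os, with 586 reads in all, was not called in any comparison.

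Tomm34 is named for the outer membrane but is a cytosolic cochaperone that hands precursors to the import machinery. Tomm34 was at 89.5, 89.7 and 97.4 CPM in the control libraries and at 94.1, 95.0 and 90.2 in the doxycycline libraries. With dTAG-13, Tomm34 was at 70.5, 76.4 and 70.8 in the dTAG-13 libraries and at 71.9, 76.9 and 73.2 in the combined libraries. All 6 libraries with dTAG-13 lay below the 6 without it. The dTAG-13 difference of Tomm34 was -0.34 (SE 0.038, adjusted p = 2.28e-10) without doxycycline and -0.33 (SE 0.038, adjusted p = 7.27e-10) with it. The doxycycline difference was 0.015 (adjusted p = 0.799).

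The small TIM chaperones shield membrane proteins in the intermembrane space: Timm9 and Timm10 form the main ring, Timm8a1, Timm8b and Timm13 form a related one, and Timm10b docks the ring on TIM22. With doxycycline 4 of 6 fell (Timm9, Timm10, Timm13 and Timm8a1) and 0 rose, where 18.7% of all genes fell. With dTAG-13 4 of 6 rose without doxycycline and 6 of 6 with it, where 30.0% and 30.7% of all genes rose. With the length and GC offset 1 of 6 (Timm10b) was called higher and 2 (Timm10 and Timm8a1) lower without doxycycline, and 4 were called higher with it, Timm8b and Timm8a1 not. Over all genes the offset gave 23.4% higher and 30.5% lower without doxycycline, and 25.1% higher with it. Timm10 was at 42.7, 42.0 and 40.4 CPM in the control libraries and at 32.1, 33.7 and 33.8 in the doxycycline libraries. With dTAG-13, Timm10 was at 46.7, 45.5 and 48.3 in the dTAG-13 libraries and at 50.8, 48.7 and 48.4 in the combined libraries. The doxycycline libraries of Timm10 were the lowest and did not overlap any other group. Timm10 fell by 20.4% with doxycycline; on the log2 scale this was -0.33 (SE 0.045, adjusted p = 1.60e-07), which was the most negative value of the set in that comparison (with the offset, -0.30, beside -0.31 for Timm17a). It rose with dTAG-13 by 0.17 (SE 0.043, adjusted p = 8.70e-04) without doxycycline and by 0.57 (SE 0.045, adjusted p = 1.74e-14) with it. Timm13 was at 157, 157 and 140.2 CPM in the control libraries and at 120.2, 128 and 132 in the doxycycline libraries. With dTAG-13, Timm13 was at 177, 154 and 169.6 in the dTAG-13 libraries and at 183, 175 and 184 in the combined libraries. All doxycycline libraries of Timm13 lay below all others, while dTAG-13 overlapped control. Timm13 differed with doxycycline by -0.25 (SE 0.064, adjusted p = 0.0132) on the log2 scale, and rose by 0.51 (SE 0.064, adjusted p = 6.66e-05) when dTAG-13 was added to it. The doxycycline call ended without control replicate 1, control replicate 2 or doxycycline replicate 1 (-0.23 to -0.21).

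Timm8b and Timm10b did not follow the doxycycline decrease. Timm8b was at 31.7, 34.0 and 33.7 CPM in the control libraries and at 32.7, 33.8 and 30.9 in the doxycycline libraries. With dTAG-13, Timm8b was at 45.2, 45.5 and 48.2 in the dTAG-13 libraries and at 48.0, 48.6 and 50.4 in the combined libraries. The libraries with and without dTAG-13 formed ranges that did not overlap, and doxycycline overlapped control. Timm8b rose by 39.9% with dTAG-13; on the log2 scale this was 0.48 (SE 0.046, adjusted p = 5.07e-12), and by 51.1% on top of doxycycline, 0.60 (SE 0.047, adjusted p = 1.89e-14). Its doxycycline difference was -0.027 (adjusted p = 0.713). The Timm8b gene overlaps Nkapd1. Timm10b was at 17.1, 17.5 and 17.8 CPM in the control libraries and at 19.8, 17.9 and 18.9 in the doxycycline libraries. With dTAG-13, Timm10b was at 22.1, 22.2 and 23.5 in the dTAG-13 libraries and at 26.0, 26.4 and 22.5 in the combined libraries. Again all libraries with dTAG-13 were above those without. Timm10b rose by 0.37 (SE 0.064, adjusted p = 3.02e-06) without and 0.40 (SE 0.064, adjusted p = 8.29e-07) with doxycycline, and its own doxycycline difference was 0.11 (adjusted p = 0.198). The gene overlaps Dnhd1. Timm9 rose by 0.26 and 0.51 in the same comparisons, and Timm8a1 by 0.31 on top of doxycycline, with 0.086 (adjusted p = 0.0906) in the comparison without it.

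**Figure D2:**
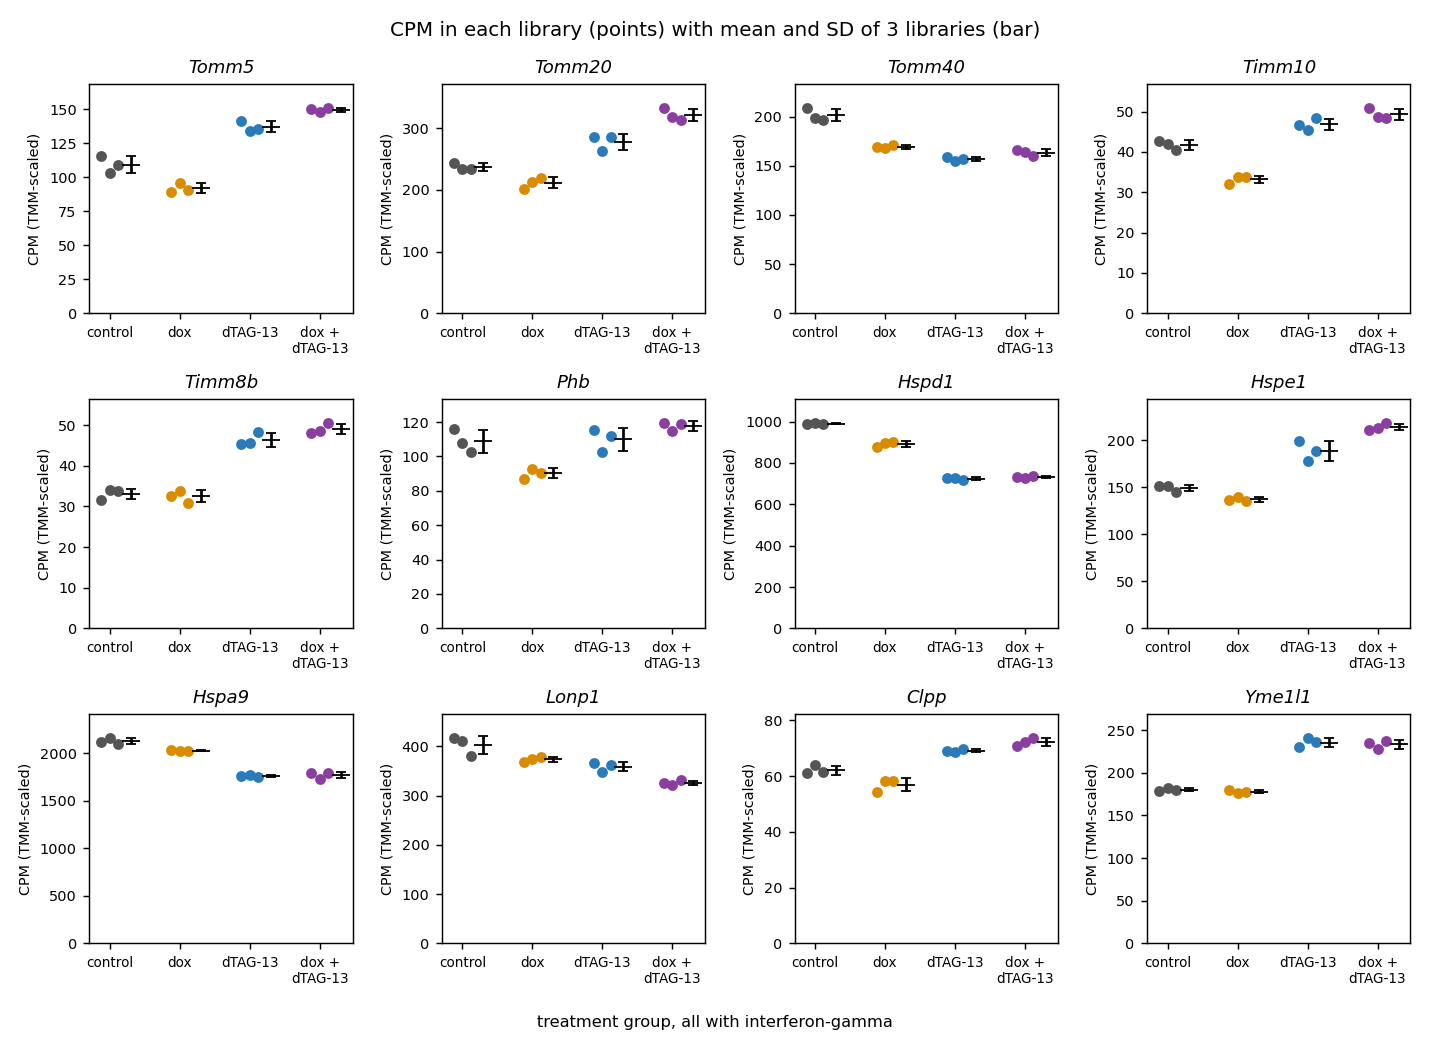
CPM (vertical axis, starting at 0) of 12 genes in each of the 12 libraries (points, 3 a group), with the mean and SD of each group as a bar beside them. Tomm5, Timm8b, Hspe1, Clpp and Yme1l1 are higher in every dTAG-13 library than in every library without it, and Hspd1, Hspa9 and Tomm40 are lower.

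TIM23 carries presequence proteins through the inner membrane. Timm23 and Timm17a or Timm17b form its core, Timm50 receives precursors and Timm21 links it to TOM. All 5 rose with dTAG-13 both without and with doxycycline, where 30.0% and 30.7% of all genes rose. With doxycycline 3 of 5 (Timm17a, Timm23 and Timm50) fell, where 18.7% of all genes fell. With the length and GC offset 3 of 5 rose with dTAG-13 without doxycycline, Timm23 and Timm50 not, and 5 of 5 with it. Over all genes 23.4% and 25.1% were called higher there. Timm21 was at 28.6, 28.5 and 30.9 CPM in the control libraries and at 29.8, 31.1 and 30.2 in the doxycycline libraries. With dTAG-13, Timm21 was at 38.8, 37.8 and 38.0 in the dTAG-13 libraries and at 42.6, 40.8 and 41.1 in the combined libraries. Every library with dTAG-13 lay above every library without it. Timm21 rose by 0.38 (SE 0.047, adjusted p = 3.43e-09) without doxycycline and by 0.45 (SE 0.047, adjusted p = 6.27e-11) with it. The doxycycline difference was 0.052 (adjusted p = 0.444), and the gene overlaps Fbxo15. Timm23 was at a mean of 46.5 ± 0.150 (SD, n = 3) CPM in control, 40.0 ± 2.89 with doxycycline, 53.8 ± 5.99 with dTAG-13 and 59.2 ± 1.88 with both. Its calls were -0.22 (adjusted p = 0.0243) for doxycycline and 0.57 (adjusted p = 2.60e-06) for dTAG-13 on top of it. Timm17a changed by -0.24 with doxycycline and 0.39 with dTAG-13 on top, and Timm50 by -0.19 and 0.29. Timm17b had the largest doxycycline difference of the set in cells with dTAG-13, 0.24 (SE 0.065, adjusted p = 0.00515). Single libraries decided several of the smaller calls. For doxycycline, the Timm23 call ended without any control replicate, or doxycycline replicate 1 or 3 (-0.23 to -0.16). For dTAG-13 against control, calls ended for Timm23 without dTAG-13 replicate 1 or 3 or control replicate 1 or 3 (0.15 to 0.20), for Timm17a without dTAG-13 replicate 1 or 3 or control replicate 3 (0.048 to 0.062), and for Timm50 without control replicate 3 or dTAG-13 replicate 1 (0.050 to 0.057). TIM22 inserts carrier proteins. Its channel Timm22 differed with doxycycline by -0.24 (SE 0.045, adjusted p = 4.62e-05) on the log2 scale and with dTAG-13 on top by 0.29 (SE 0.046, adjusted p = 4.24e-07). The subunit Timm29, whose gene overlaps Yipf2, was not called in any comparison of the main fit. Of 20 alternatives, 8 called Timm29 lower with dTAG-13 against control, and 1 called it lower with doxycycline against control. The rise of Timm22 with dTAG-13 alone (0.11) was not called without any dTAG-13 replicate or control replicate 2 or 3 (0.092 to 0.11).

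The import motor pulls precursors into the matrix. Hspa9 is its ATPase, Grpel1 the nucleotide exchange factor and Timm44 the anchor on TIM23. Hspa9 was at 2121, 2156 and 2097 CPM in the control libraries and at 2034, 2023 and 2022 in the doxycycline libraries. With dTAG-13, Hspa9 was at 1759, 1769 and 1745 in the dTAG-13 libraries and at 1790.0, 1731 and 1792 in the combined libraries. Control was highest, doxycycline lay just below it with no overlap, and both dTAG-13 groups were lowest and overlapped each other. Hspa9 fell by 17.3% with dTAG-13; on the log2 scale this was -0.27 (SE 0.017, adjusted p = 2.92e-17). On top of doxycycline it fell by 12.6%, on the log2 scale -0.19 (SE 0.017, adjusted p = 7.16e-13). With doxycycline alone it differed by -0.068 (SE 0.017, adjusted p = 0.00186), and without control replicate 2 that value was -0.047 and not called. The gene hosts small nucleolar RNAs. Grpel1 moved against Hspa9 under dTAG-13, rising by 0.20 without doxycycline and by 0.45 with it. Its doxycycline call (-0.093) ended without control replicate 2, either of dTAG-13 replicates 1 and 2, or of doxycycline replicates 1 and 2 (-0.088 to -0.061). Timm44 rose by 0.16 with dTAG-13 on top of doxycycline. Its doxycycline difference in cells with dTAG-13 (0.10) was called, but not without dTAG-13 replicate 2 or combined replicate 1 or 2 (0.091 to 0.10).

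Hspd1 encodes the barrel of the matrix chaperonin and Hspe1 its lid. The genes stand head to head on chromosome 1, and their RefSeq spans overlap at the starts, so that reads from the overlap could be counted for either: Hspd1 on the minus strand at chr1:55077833-55088243 and Hspe1 on the plus strand at chr1:55088148-55091317 (RefSeq, GRCm38.p6, the assembly also called mm10). Their starts in GENCODE M21 lie 107 bases apart, and the stretch below lies between them. By the RefSeq span it lies within Hspd1. It is shown because it lies between the GENCODE starts of genes that moved in opposite directions under dTAG-13. The whole stretch is chr1:55088053-55088082 on the plus strand, and capitals mark a match to the core of the heat shock element, GAANNTTC.
Hspd1-Hspe1: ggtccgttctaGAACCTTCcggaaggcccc

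Hspd1 was at 989.8, 992 and 987 CPM in the control libraries and at 875, 899 and 900.4 in the doxycycline libraries. With dTAG-13, Hspd1 was at 728, 726 and 717 in the dTAG-13 libraries and at 730.5, 729 and 736 in the combined libraries. Control and doxycycline libraries did not overlap, and all libraries with dTAG-13 were lower than both. Hspe1 was at 151, 151 and 145 CPM in the control libraries and at 136, 139.7 and 135 in the doxycycline libraries. With dTAG-13, Hspe1 was at 199.5, 178 and 188 in the dTAG-13 libraries and at 211, 213 and 218 in the combined libraries. For Hspe1 doxycycline was lowest, then control, then dTAG-13, and the combined group was highest, with no overlap. Both transcripts fell with doxycycline, with log2 fold changes of -0.15 (SE 0.019, adjusted p = 2.42e-08) for Hspd1 and -0.12 (SE 0.031, adjusted p = 0.00199) for Hspe1. With dTAG-13 Hspd1 fell by 26.9%; on the log2 scale this was -0.45 (SE 0.019, adjusted p = 3.25e-23), the most negative of the set in that comparison. Hspe1 rose by 26.4%; on the log2 scale this was 0.34 (SE 0.030, adjusted p = 2.39e-12). Adding dTAG-13 to doxycycline-treated cells gave -0.28 (SE 0.019, adjusted p = 1.06e-16) for Hspd1 and 0.64 (SE 0.031, adjusted p = 2.56e-20) for Hspe1. In cells with dTAG-13, doxycycline raised Hspe1 by 0.18 (SE 0.030, adjusted p = 1.35e-05) and left Hspd1 at 0.017 (adjusted p = 0.604). Per kilobase of transcript, the ratio of Hspe1 to Hspd1 was 0.472 ± 0.0097 (SD, n = 3) in control and 0.481 ± 0.010 with doxycycline. It was 0.816 ± 0.046 with dTAG-13 and 0.915 ± 0.011 with both. Control and doxycycline overlapped, and both lay below every library with dTAG-13. The transcripts differ in length, 774 bases for Hspe1 and 2423 for Hspd1. When the part of each library that follows transcript length and GC content was removed by an offset, the dTAG-13 difference of Hspd1 was -0.57 and that of Hspe1 0.058, no longer called (adjusted p = 0.0592). On top of doxycycline the values were -0.38 and 0.23, both called.

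Of the other matrix chaperones, Trap1, a mitochondrial relative of cytosolic heat shock chaperones, rose with dTAG-13 by 0.16 (SE 0.027, adjusted p = 1.54e-06) without doxycycline and 0.14 (SE 0.027, adjusted p = 1.63e-05) with it. Its gene overlaps Dnase1. The J-domain cochaperone Dnaja3 was not called in any comparison of the main fit, with means of 97.1 ± 2.99 CPM in control, 98.7 ± 1.04 with doxycycline, 98.3 ± 1.64 with dTAG-13 and 95.9 ± 0.814 with both (SD, n = 3).

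Among the ATP-dependent proteases, Lonp1 and the Clpx-Clpp pair work in the matrix, Afg3l2 and Spg7 form the m-AAA protease that faces the matrix, and Yme1l1 is the i-AAA protease that faces the intermembrane space. With dTAG-13, 2 of 6 rose (Clpp and Yme1l1) and 3 of 6 fell (Lonp1, Afg3l2 and Spg7), both without doxycycline and with it, shares of 33.3% and 50% beside 30.0% higher and 32.1% lower of all genes without it. With the length and GC offset Clpp was not called without doxycycline (0.015, adjusted p = 0.751) and Clpx was called lower (-0.10). Afg3l2 was at 175, 176 and 172 CPM in the control libraries and at 154, 152 and 156 in the doxycycline libraries. With dTAG-13, Afg3l2 was at 141, 140.5 and 141 in the dTAG-13 libraries and at 135, 132 and 132 in the combined libraries. The 4 groups of Afg3l2 did not overlap, with control highest and the combined group lowest. Afg3l2 differed by -0.18 (SE 0.026, adjusted p = 4.12e-07) with doxycycline, -0.31 (SE 0.026, adjusted p = 1.28e-13) with dTAG-13 and -0.21 (SE 0.026, adjusted p = 3.66e-09) with dTAG-13 on top of doxycycline. Spg7 was at 105, 106 and 105 CPM in the control libraries and at 106, 104 and 107 in the doxycycline libraries. With dTAG-13, Spg7 was at 86.4, 87.7 and 86.4 in the dTAG-13 libraries and at 83.8, 82.9 and 84.4 in the combined libraries. Libraries with dTAG-13 lay below the rest, and control and doxycycline overlapped. Spg7, the partner of Afg3l2, changed by -0.28 (SE 0.030, adjusted p = 1.27e-10) and -0.33 (SE 0.031, adjusted p = 1.49e-12) with dTAG-13. The doxycycline difference was 0.0022 (adjusted p = 0.966). Lonp1 was at 416, 410.2 and 381 CPM in the control libraries and at 368, 375 and 378 in the doxycycline libraries. With dTAG-13, Lonp1 was at 365, 349 and 362 in the dTAG-13 libraries and at 325, 321 and 331 in the combined libraries. The 4 groups of Lonp1 did not overlap, in the order control, doxycycline, dTAG-13 and combined. Lonp1 fell in each comparison between groups: -0.11 (SE 0.026, adjusted p = 0.00107) with doxycycline, -0.17 (SE 0.026, adjusted p = 6.30e-07) with dTAG-13, -0.20 (SE 0.026, adjusted p = 2.52e-08) with dTAG-13 on top of doxycycline, and -0.14 (SE 0.026, adjusted p = 1.21e-04) with doxycycline on top of dTAG-13.

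Clpp, the proteolytic core of the Clpx-Clpp protease, went the other way. Clpp was at 60.9, 64.0 and 61.3 CPM in the control libraries and at 54.2, 58.2 and 58.1 in the doxycycline libraries. With dTAG-13, Clpp was at 69.1, 68.5 and 69.8 in the dTAG-13 libraries and at 70.9, 72.2 and 73.5 in the combined libraries. Doxycycline was lowest and both dTAG-13 groups were above control. Clpp differed by -0.13 (SE 0.038, adjusted p = 0.00738) with doxycycline, 0.16 (SE 0.037, adjusted p = 3.93e-04) with dTAG-13 and 0.35 (SE 0.038, adjusted p = 1.53e-10) with dTAG-13 on top. The doxycycline call ended without control replicate 2 or doxycycline replicate 1 (-0.095 and -0.084). Its unfoldase partner Clpx was not called in the main fit, with -0.10 (adjusted p = 0.0729) for doxycycline and 0.041 (adjusted p = 0.421) for dTAG-13. With the offset Clpx was called lower with doxycycline (-0.13). Yme1l1 was at 179, 182 and 180.0 CPM in the control libraries and at 179.8, 176 and 178 in the doxycycline libraries. With dTAG-13, Yme1l1 was at 230.0, 240.3 and 236 in the dTAG-13 libraries and at 235, 228 and 238 in the combined libraries. Both dTAG-13 groups overlapped each other and lay above both groups without it, which also overlapped. Yme1l1 rose by 30.6% with dTAG-13; on the log2 scale this was 0.39 (SE 0.025, adjusted p = 6.81e-17), and by 0.39 (SE 0.025, adjusted p = 4.94e-17) on top of doxycycline. Its doxycycline difference was -0.018 (adjusted p = 0.645). With the length and GC offset that value was -0.10 and called lower (adjusted p = 6.09e-04). The gene overlaps Mastl. Htra2, a serine protease of the intermembrane space, rose by 0.21 and 0.23 in these comparisons.

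Prohibitins form rings in the inner membrane that hold the m-AAA protease. Both fell with doxycycline, and both rose when dTAG-13 was added to it, where 18.7% of all genes fell and 30.7% rose. The 3 doxycycline libraries stand in both comparisons. Phb was at 116, 108 and 102 CPM in the control libraries and at 87.0, 92.7 and 90.5 in the doxycycline libraries. With dTAG-13, Phb was at 115, 102 and 112 in the dTAG-13 libraries and at 119, 115 and 119 in the combined libraries. Doxycycline lay below all other groups, and control overlapped dTAG-13. The difference of Phb was -0.27 (SE 0.045, adjusted p = 9.46e-05) with doxycycline, 0.015 (adjusted p = 0.793) with dTAG-13 and 0.39 (SE 0.045, adjusted p = 3.63e-07) with dTAG-13 on top of doxycycline. Phb2 was at a mean of 428 ± 10.2 CPM in control, 374 ± 4.47 with doxycycline, 443 ± 6.60 with dTAG-13 and 461 ± 8.02 with both (SD, n = 3). Its values were -0.19 (SE 0.022, adjusted p = 5.91e-09) for doxycycline and 0.30 (SE 0.022, adjusted p = 4.75e-15) for dTAG-13 on top. With dTAG-13 against control Phb2 was called at 0.051 (adjusted p = 0.0455). That call ended when any of 10 libraries was left out (0.026 to 0.056), all except control replicate 1 and combined replicate 2, and with the length and GC offset the value was -0.043, not called.

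Whether dTAG-13 acted differently with doxycycline present was tested as an interaction, the dTAG-13 difference with doxycycline minus that without it. It uses the same 4 cultures as the comparisons above, so it is not an independent result. Of 39 members, 21 had a positive interaction and 0 a negative one, beside 13.2% and 9.64% of all genes. The median was 0.19 over the members and 0.00526 over all genes. The largest values were 0.40 (SE 0.062, adjusted p = 4.70e-06) for Timm10 and 0.38 (SE 0.048, adjusted p = 6.82e-06) for Tomm20, whose library values stand above. Both genes were lower with doxycycline alone than in control, and above control in the combined group. With the length and GC offset Tomm20 (0.44) and Timm17a (0.41) were largest, and Timm10 was at 0.26. By role, the interaction was called in 2 of 3 receptors, 3 of 5 channel and small subunits, 4 of 6 small TIM chaperones, 3 of 5 TIM23 subunits, all 3 motor genes and both prohibitins. Among the proteases it was called in 1 of 6, Clpp (0.19), whereas Lonp1 (-0.030), Yme1l1 (0.0063) and Spg7 (-0.055) were not called. With the offset Clpp (0.082) was not called, and Yme1l1 (0.10) and Afg3l2 (0.12) were. Hspd1 (0.17 (SE 0.027, adjusted p = 7.99e-06)) and Hspe1 (0.31 (SE 0.043, adjusted p = 1.30e-06)) both were. With scaling by total count alone the split was 14 higher and 3 lower, beside 6.34% and 18.8% of all genes. The calls of Clpp, Hspa9, Timm44, Timm22, Timm9, Timm8a1 and Tomm40l were lost there, and Dnaja3, Spg7 and Lonp1 were called lower. Left-out libraries ended the calls of Hspa9 (control replicate 2, doxycycline replicate 2 or combined replicate 1, 0.062 to 0.072), Clpp (doxycycline replicate 1, 0.15), Tomm40l (control replicate 2 or doxycycline replicate 2, 0.16 to 0.17) and Timm22 (control replicate 1, doxycycline replicate 2, dTAG-13 replicate 1 or 2, or combined replicate 3, 0.13 to 0.18). That of Timm44 ended when any of 9 libraries was left out, all except control replicate 3, combined replicate 3 and dTAG-13 replicate 3 (0.11 to 0.14).

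**Figure D3:**
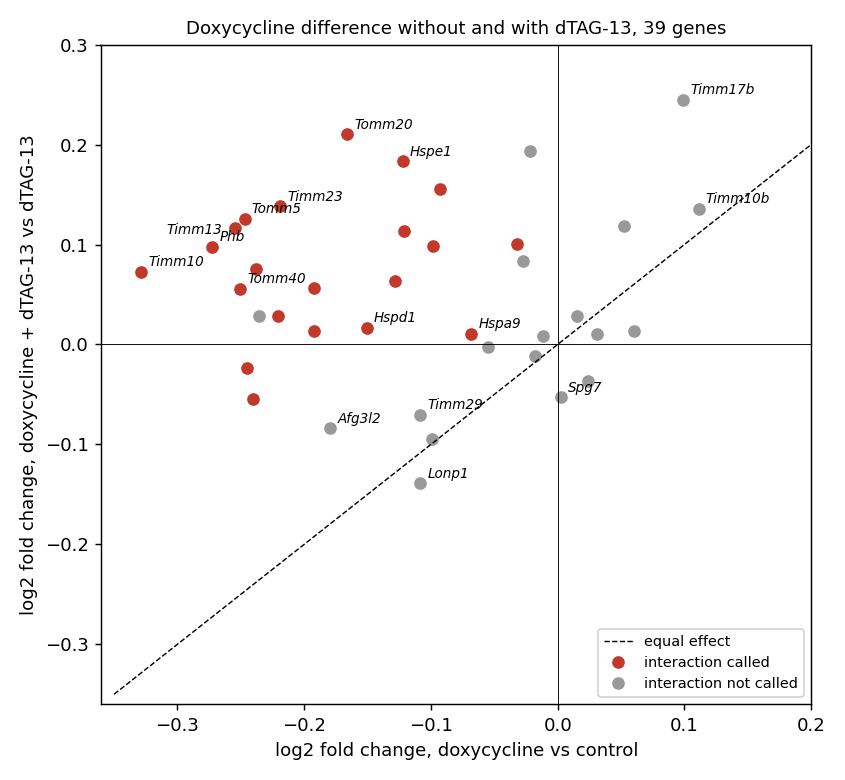
Log2 fold change of doxycycline against control (horizontal axis) and of doxycycline plus dTAG-13 against dTAG-13 (vertical axis) for the 39 tested genes; red points had a called interaction and the dashed line marks equal values. All 21 red points lie above the dashed line, and Lonp1, Spg7 and Timm10b are grey points near it.

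Transcript length moved with the dTAG-13 comparisons across the whole table. Over 11745 genes with a length, Spearman's rho of length with the log2 fold change was -0.444 for dTAG-13 against control, and on top of doxycycline it was -0.583. The median of all genes under 1 kilobase was 0.27 and 0.45 in these comparisons, and that of genes over 3 kilobases -0.13 and -0.19. The median length was 2350.5 bases over the tested members with a length and 3121 over all such genes. The 6 members under 1 kilobase had medians of 0.25 and 0.58. The 21 members over 2 kilobases, a lower cut than for all genes, had 0.078 and 0.14. For doxycycline against control rho was 0.109 over all genes. These correlations are across genes, which are not independent, and the genes share the same 12 libraries. With an offset for length and GC content in each library, dTAG-13 against control gave 11 members higher and 12 lower in place of 22 and 7, beside 23.4% and 30.5% of all genes, and the member median turned from 0.095 to -0.0105. The dTAG-13 difference on top of doxycycline gave 22 higher and 8 lower, beside 25.1% and 26.8%, with a median of 0.14. For doxycycline against control the offset gave 0 higher and 26 lower, beside 12.2% and 23.3%, and the 22 genes called without it were all among them. The others were Tomm40l, Tomm7, Yme1l1 and Clpx. The interaction gave 21 higher and 1 lower, beside 15.5% and 6.79%, with 18 of the 21 shared.

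The offset, which takes length and GC content together, moved single genes by different amounts. Tomm5, with 738 bases, went from 0.33 to -0.038 with dTAG-13, and from 0.70 to 0.21 on top of doxycycline. Timm10, with 690 bases, went from 0.17 to -0.12 and from 0.57 to 0.14. The calls of Timm8b were lost in both comparisons (0.11 and 0.066), as were those of Tomm7 (-0.065 and 0.12). With dTAG-13 alone the calls of Clpp, Timm9, Timm50 and Timm22 ended (0.015, 0.053, 0.043 and 0.084), and that of Timm23 turned to -0.029, not called. On top of doxycycline the calls of Tomm22, Timm8a1 and Timm44 ended (-0.0080, 0.045 and 0.029). Tomm20, with 4902 bases, went from 0.60 to 0.74 on top of doxycycline, and Tomm40l, with 4712 bases, from 0.42 to 0.66. At nearly the same length as Tomm40l, Yme1l1 (4707 bases, 38.0% GC) went from 0.39 to 0.24 with dTAG-13, where Tomm40l went from 0.22 to 0.42. The parts of length and GC content were not tested separately. Of the decreases, Hspa9 was at -0.36, Tomm40 at -0.36, Tomm34 at -0.33, Afg3l2 at -0.27, Spg7 at -0.19 and Lonp1 at -0.061 for dTAG-13 against control.

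**Figure D4:**
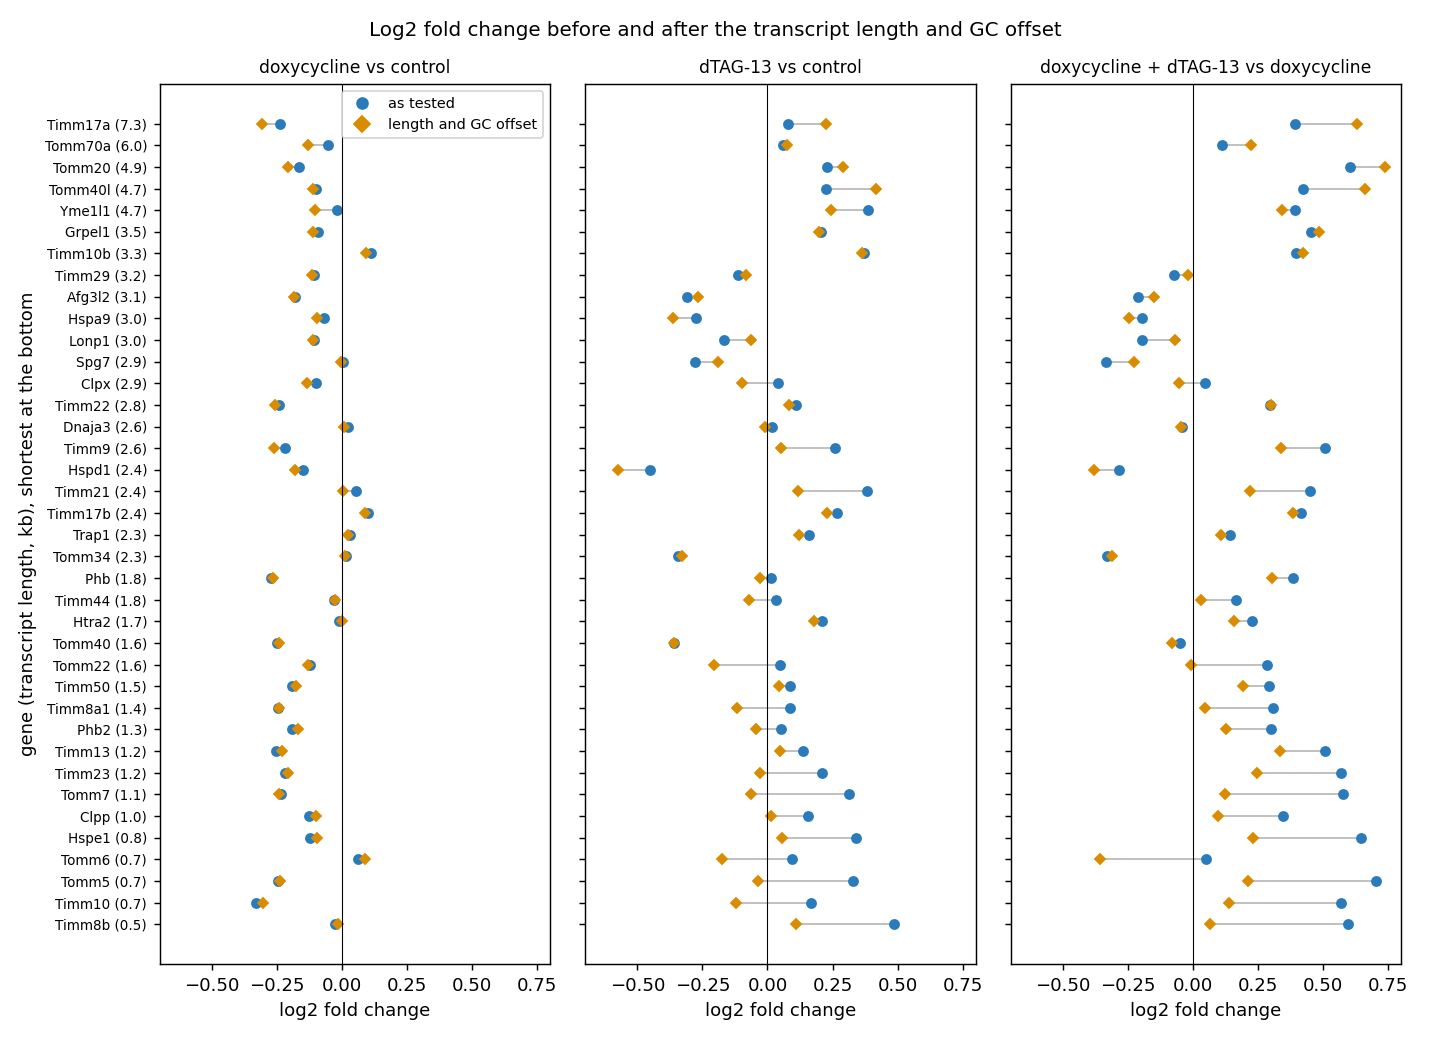
Log2 fold change as tested (circles) and with the transcript length and GC offset (diamonds) for 38 tested genes with a length, ordered from the shortest at the bottom to the longest at the top, in 3 comparisons. In the doxycycline panel the symbols lie at most 0.085 apart (Yme1l1), and in the dTAG-13 panels the shortest genes shift to the left.

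The genes whose level followed Hspd1 most closely were ranked by Pearson's r of log2 CPM over the 12 libraries among 9104 genes. Safb (0.998), Ncl (0.997), Eif3b (0.996), Nolc1 (0.995) and Ddx21 (0.995) led. The points share the 4 cultures, so r describes these libraries. Within the set, Hspa9 was nearest at 0.989, place 40 of all genes compared, followed by Afg3l2 at 0.953 and Spg7 at 0.944. Hspe1, across the shared promoter, had an r of -0.847.

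Other genes of the import pathway were described from a list of 18, all tested. This list and those below were chosen with earlier results of these data known. With doxycycline 5 fell (27.8%, beside 18.7% of all genes) and 1 rose. Romo1, a small inner-membrane protein, differed by -0.30 (SE 0.080, adjusted p = 0.012), and Chchd4, the receptor of the intermembrane disulfide relay, by -0.27 (SE 0.036, adjusted p = 9.51e-08). Mtx3, a metaxin, rose by 0.14. With dTAG-13 11 rose (61.1%, beside 30.0%) and 2 fell (11.1%, beside 32.1%) without doxycycline, and 13 rose (72.2%, beside 30.7%) and 2 fell (11.1%, beside 33.4%) with it. The peptidase subunit Immp1l rose most, by 0.70 (SE 0.068, adjusted p = 7.70e-12) and 0.71 (SE 0.070, adjusted p = 9.46e-12), and the insertase Oxa1l differed by -0.28 and -0.27. The medians of the 18 genes were -0.0305 for doxycycline, 0.215 for dTAG-13 and 0.297 for dTAG-13 on top of doxycycline.

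Among 9 further proteostasis genes, 4 fell (44.4%, beside 18.7% of all genes) and 0 rose with doxycycline, led by the rhomboid protease Parl at -0.25 (SE 0.032, adjusted p = 5.76e-08). With dTAG-13 on top of doxycycline 4 rose and 3 fell (44.4% and 33.3%, beside 30.7% and 33.4% of all genes): the iron-sulfur cochaperone Hscb rose by 0.66 (SE 0.076, adjusted p = 6.87e-10) and the presequence peptidase Pitrm1 differed by -0.34 (SE 0.027, adjusted p = 2.91e-14). Of 10 genes of mitochondrial stress signalling, 2 rose and 1 fell with doxycycline, beside 14.8% and 18.7% of all genes. Dele1, which relays mitochondrial stress to the kinase of Eif2ak1, differed by 0.15 (SE 0.045, adjusted p = 0.00772), and the transcription factor Atf4 by -0.078 (SE 0.019, adjusted p = 0.00148). The hormone gene Fgf21 was also called higher, at 1.67 (SE 0.59, adjusted p = 0.0249), at means of 0.0886 CPM in control and 0.291 with doxycycline. With dTAG-13 4 of these 10 rose, Fgf21 included, and 3 fell, near the 30.0% and 32.1% of all genes. Among them were Ddit3 at 0.31 (SE 0.031, adjusted p = 1.40e-11) and Eif2ak1 at -0.43 (SE 0.041, adjusted p = 2.98e-12). At its low levels without dTAG-13, Fgf21 may have passed the filter on low counts only through libraries with dTAG-13. Its rise with dTAG-13 is therefore no evidence of its own. On top of doxycycline 4 rose and 4 fell, beside 30.7% and 33.4% of all genes, and Atf4 was called at 0.18 (SE 0.019, adjusted p = 1.15e-10).

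Promoter windows from RefSeq (GRCm38.p6, 250 bases before to 50 after the start) were matched by Entrez ID and symbol for 35 of the 41 members, and each motif was searched on both strands. The ETS core CCGGAAG was in 16 of 35 members (45.7%), against 9.93% of 27025 genes. The 16 include the untested Timm8a2, and the matches of Hspd1 and Hspe1 are the same bases. The 27025 genes include genes not expressed in these cells, and the share among the tested genes was not computed. Whether the excess is particular to the set was therefore not tested. The NRF1 motif was in 6 (17.1%), against 5.19%. The heat shock core GAANNTTC was in 3 (8.57%; Hspd1, Hspe1 and Timm9), against 9.04%. The YY1 motif AAGATGGCG was in 1 (Timm50), against 1.64%, and TGATGCAAT, a site of C/EBP and ATF factors, in 0, against 0.222%. In the stretch shared by Hspd1 and Hspe1 the heat shock match overlaps an ETS match. Members with the ETS core moved in either direction under dTAG-13: Timm8b, Timm10b and Yme1l1 rose and Tomm34 and Hspd1 fell. The 100 bases before the start are shown for Phb2, which fell with doxycycline and rose with dTAG-13 on top, for Tomm34, which fell with dTAG-13, and for Lonp1, which fell in each comparison between groups. Capitals mark the ETS core on either strand, and the Lonp1 stretch holds none.
Phb2, chr6:124712189-124712288, plus strand: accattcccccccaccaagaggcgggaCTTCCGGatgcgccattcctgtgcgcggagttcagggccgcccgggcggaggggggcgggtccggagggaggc
Tomm34, chr2:164071170-164071269, minus strand: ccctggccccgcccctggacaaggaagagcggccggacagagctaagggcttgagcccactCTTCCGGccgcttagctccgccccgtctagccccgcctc
Lonp1, chr17:56626904-56627003, minus strand: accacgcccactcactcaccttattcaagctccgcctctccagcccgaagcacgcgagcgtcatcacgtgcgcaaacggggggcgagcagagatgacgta
A match is a stretch of letters and was not tested as a binding site.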

How the data were processed

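Raw counts of reads per Entrez gene ID for the 12 libraries, not normalized, were deposited by the authors in 1 table. Per the labels' protocols, poly(A) RNA was made into libraries with the NEBNext Ultra II kit. Alignment was by Subread, per the file headers. The submitters' processing notes list bcl2fastq 2.17, featureCounts and the build mm10. Which annotation, strand setting and rule for multi-mapping reads were used is not given in the sources, so values of overlapping genes are uncertain.

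IDs were named from RefSeq GRCm38.p6 (25275 of 27179) and GENCODE M21 (18), which also gave transcript lengths. A further 1886 IDs, with 2.097% of reads, had no symbol. In R 4.3.3, edgeR 4.0.16 filtered genes with filterByExpr, scaled libraries by TMM (factors 0.965 to 1.035) and tested all contrasts in 1 robust quasi-likelihood fit to the 12 libraries, with Benjamini-Hochberg adjustment over 12910 genes and a threshold of 0.05. Each standard error (SE) is the fold change over the root of F. The length and GC offset used splines with 5 degrees of freedom in each library, over the 11745 tested genes with a length.

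Full values are printed for the 4 called members with the most positive and the 4 with the most negative change with doxycycline, with dTAG-13, and with dTAG-13 on top of doxycycline, the 2 and 2 of the interaction, and Hspd1, Hspe1, Hspa9, Lonp1 and Clpp. No member was called higher with doxycycline or lower in the interaction, so the rule selected none there. The members and lists were chosen with earlier results of these data known.

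The alternatives were DESeq2 1.42.0 in place of edgeR, its size factors (RLE) in edgeR, scaling by library size only, no low-count filter, a minimum of 1 CPM in 3 libraries, fits to the compared groups only, a replicate block, the offset, and leaving out each library. The code was tested on simulated data with 200 changed genes. Within groups no libraries were duplicates: the chi-square per degree of freedom was 2.38 to 8.38. Pairs with replicate 3 gave 8.04 and 8.38 in the combined group, where replicates 1 and 2 gave 2.68. They gave 4.32 and 4.51 beside 2.41 in control, and 4.87 and 5.51 beside 2.38 with doxycycline. The dTAG-13 pairs gave 2.99 to 3.24. Tables used Python 3.11.15 (pandas 2.3.3, numpy 2.4.6) and figures matplotlib 3.10.9.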

Additional observations from a re-analysis of the deposited data

Results flagged for a closer look

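The dTAG-13 difference was larger, or less negative, with doxycycline than without it in 21 members, each past the threshold in edgeR's interaction test. Over all genes 13.2% were called higher and 9.64% lower. Of 19 alternatives, the call ended in 12 for Timm44, 6 for Timm22, 4 for Hspa9 and 3 each for Clpp and Tomm40l. It ended in 2 for Timm8a1 and 1 for Timm9. On the log2 scale these interaction values were 0.24 for Tomm22, 0.38 for Tomm20, 0.20 for Tomm40l, 0.37 for Tomm5 and 0.31 for Tomm40 in the TOM complex. Among the small TIM chaperones they were 0.37 for Timm13, 0.25 for Timm9, 0.40 for Timm10 and 0.22 for Timm8a1. The inner-membrane translocases gave 0.19 for Timm22, 0.31 for Timm17a, 0.36 for Timm23 and 0.20 for Timm50. The motor genes gave 0.08 for Hspa9, 0.25 for Grpel1 and 0.13 for Timm44. The matrix and inner-membrane genes gave 0.17 for Hspd1, 0.31 for Hspe1, 0.19 for Clpp, 0.37 for Phb and 0.25 for Phb2. Hspd1, Hspe1, Hspa9 and Clpp are among them, and Lonp1 (-0.030) is not.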

How the results depend on the processing

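With the offset for transcript length and GC content, dTAG-13 against control gave 11 members higher and 12 lower (median -0.0105), beside 23.4% and 30.5% of all genes. The values of Tomm22 (-0.206), Tomm6 (-0.173), Tomm5 (-0.0378), Tomm7 (-0.0648), Timm10 (-0.121), Timm8a1 (-0.118), Timm23 (-0.0287), Clpx (-0.099) and Phb2 (-0.0431) turned negative. Of these, Tomm22, Tomm6, Timm10, Timm8a1 and Clpx were called lower. Timm44 (-0.0698), Phb (-0.0287) and Dnaja3 (-0.0105), called neither with nor without the offset, also turned negative. For dTAG-13 on top of doxycycline the median was 0.138. Tomm22 (-0.00801, not called), Tomm6 (-0.356, called lower) and Clpx (-0.0538, called neither with nor without the offset) turned negative. For doxycycline on top of dTAG-13 the offset gave a median of 0.0122 and 1 member lower, and for the interaction a median of 0.155 and 1 lower. The cause of these changes was not tested.

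Scaling by library size alone moved the medians to -0.0726 for doxycycline against control, 0.187 for dTAG-13 against control, 0.321 for dTAG-13 on top of doxycycline, 0.0212 with 4 members lower for doxycycline on top of dTAG-13, and 0.115 with 3 lower for the interaction. It moved the median of all genes by at most 0.0913. With no filter on low counts 1 member was lower for doxycycline on top of dTAG-13.

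Leaving out 1 library at a time gave medians of -0.144 to -0.0846 for doxycycline against control (-0.144 without control replicate 3), 0.284 to 0.329 for dTAG-13 on top of doxycycline (0.322 and 0.329 without combined replicates 1 and 2) and 0.141 to 0.205 for the interaction (0.141 without combined replicate 3). The members lower for doxycycline on top of dTAG-13 numbered 1 to 2, with 1 when combined replicate 2 or 3 or any dTAG-13 replicate was left out. Members kept their side of the threshold, with no called value changing sign, under all alternatives run in 28 of 39 cases for doxycycline against control, 17 for dTAG-13 against control, 32 for dTAG-13 on top of doxycycline, 26 for doxycycline on top of dTAG-13 and 24 for the interaction. Of these, 22, 17, 31, 11 and 16 also kept 1 sign throughout.

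The replicate numbers did not pair the libraries (correlation of deviations -0.0208 to 0.0801). With the replicate block 20 members were lower for doxycycline against control, 22 were higher and 7 lower for dTAG-13 against control, 27 and 6 for dTAG-13 on top of doxycycline, 7 and 2 for doxycycline on top of dTAG-13, and 21 and 0 for the interaction. That fit called 2315 of 12910 genes lower for doxycycline against control. In the order above, the others gave 3825 higher and 4113 lower, 3921 and 4284, 1319 and 1171, and 1622 and 1188. At 22165538 to 32809573 reads a library, differences in Tomm20l and Timm8a2 were not detectable.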
